A study of Mus musculus with 12 samples.

Results

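Cyp1b1, a cytochrome P450, and 6 further genes of the aryl hydrocarbon receptor (AhR) pathway were followed across cultured explants of mouse lung metastases. The 7 genes are Cyp1b1, Cyp1a1, Cyp1a2, Ahr, Ahrr, Arnt and Tiparp, of 19505 genes measured, and each was matched by its annotated symbol to the 1 probe set that carries it. Cyp1b1 was chosen by its measured values, because it rose under phenformin in explants of the control line, so its values in that comparison are a description and carry no test. The other 6 are the receptor, its partner and its best known target genes. The explants came from mice whose tail vein had been injected with NMuMG-ErbB2 cells, a mouse mammary epithelial line that carries the ErbB2 oncogene in all 4 groups. The injected cells either overexpressed PGC-1alpha, a transcriptional coactivator known for mitochondrial biogenesis, or were control cells named VC in the labels. Lung metastases were isolated, put into culture and kept for 4 days either in 100 uM phenformin, a biguanide that inhibits respiratory complex I, or in water as the vehicle. This gave 4 groups of 3 arrays. Whether replicates are separate mice or cultures, how many clones each line held and the age of the mice are not stated in the labels. The p-values below therefore reflect no more than the scatter among these arrays, some of which may be technical. A difference between the lines cannot be told apart from any other difference between the metastases taken for each line.

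The AhR is a transcription factor that waits in the cytoplasm, bound to HSP90 and other chaperones, until a ligand such as a polycyclic aromatic hydrocarbon or a tryptophan metabolite binds it. It then enters the nucleus, pairs with ARNT and binds DNA elements that hold a short core, GCGTG. Cyp1a1, Cyp1a2 and Cyp1b1 encode the P450 enzymes that oxidise such ligands, and CYP1B1 also hydroxylates estradiol, which is why it is studied in mammary tissue. Ahrr and Tiparp are targets of the receptor that feed back on it. AHRR is a repressor that competes for ARNT, and TIPARP is an ADP-ribosyltransferase that lowers AhR activity.

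The sequence just upstream of the start was read for 6 of the 7 genes from RefSeq (GRCm38.p6). For Cyp1a1 and Arnt the start used is not the 5′ end of the gene's RefSeq span. The sequences of 4 target genes, all of which held the GCGTG core, are shown, and those of Cyp1a2 and Arnt are not. They are 250 bases each and 5′ to 3′ on the gene's strand, with each GCGTG core, on either strand, in capitals. The windows are chr17:79715062-79715311 on the minus strand for Cyp1b1, chr9:57697363-57697612 on the plus strand for Cyp1a1, chr13:74292332-74292581 on the minus strand for Ahrr and chr3:65528197-65528446 on the plus strand for Tiparp.
Cyp1b1: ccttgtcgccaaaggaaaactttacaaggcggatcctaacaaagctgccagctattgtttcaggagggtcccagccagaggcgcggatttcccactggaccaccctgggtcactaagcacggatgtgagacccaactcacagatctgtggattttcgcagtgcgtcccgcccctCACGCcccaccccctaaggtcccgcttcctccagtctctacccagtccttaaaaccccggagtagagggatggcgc
Cyp1a1: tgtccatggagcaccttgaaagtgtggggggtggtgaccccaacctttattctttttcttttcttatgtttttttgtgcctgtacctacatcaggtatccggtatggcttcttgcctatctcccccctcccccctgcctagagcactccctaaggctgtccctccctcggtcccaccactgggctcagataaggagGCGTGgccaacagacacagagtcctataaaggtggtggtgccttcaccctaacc
Ahrr: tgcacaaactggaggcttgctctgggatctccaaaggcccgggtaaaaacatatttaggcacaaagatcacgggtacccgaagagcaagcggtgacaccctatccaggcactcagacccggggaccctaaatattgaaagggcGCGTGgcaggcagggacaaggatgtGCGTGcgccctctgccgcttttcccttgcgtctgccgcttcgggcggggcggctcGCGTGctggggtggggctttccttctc
Tiparp: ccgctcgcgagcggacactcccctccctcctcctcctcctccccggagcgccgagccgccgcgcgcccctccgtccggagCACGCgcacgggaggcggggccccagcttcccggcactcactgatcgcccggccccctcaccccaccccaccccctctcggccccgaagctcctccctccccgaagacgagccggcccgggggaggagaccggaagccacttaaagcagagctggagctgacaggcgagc
The core was found once in the window of Cyp1b1, once in those of Cyp1a1, Tiparp and Arnt, 3 times in that of Ahrr and not in that of Cyp1a2. In Cyp1b1 it read as CACGC on the gene's strand, with its first base 76 bases upstream of the start. The longer form TNGCGTG, which contains the core and was also searched on both strands, was found in the window of Ahrr alone among the 6. Of 32851 such windows of mouse genes, 28.2% held the core and 4.10% the longer form, so a core in a window is common. The known AhR enhancers of Cyp1a1 lie farther upstream than these windows reach.

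Ppargc1a, which encodes PGC-1alpha, followed the labels: its lowest log2 value was 8.06 in the PGC-1alpha arrays and its highest was 7.29 in the control-line arrays. The files give no detection calls, so a gene is called above background on an array where it exceeded the 95th percentile of that array's negative control probe sets, which lay between 7.72 and 7.99 on the log2 scale. This limit is strict, since those controls are not free of signal, and 34.6% to 39.1% of genes passed it per array. Their median was 5.086 to 5.197 in the 6 phenformin arrays and 4.69 to 5.02 in the 6 water arrays, so it moved with the treatment. Replicate 2 of the control-line water group was an outlying array, with a score of 33.3 on principal component 2 where the next highest was 9.16, and results are given without it where it matters. A difference is given ± its limma standard error, n = 3 per group throughout, and adjusted p-values are limma's, with Benjamini-Hochberg adjustment over all genes and a threshold of 0.05. The number of arrays limits the precision.

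Cyp1b1 was higher in control-line explants than in PGC-1alpha explants, and within each line its measured values were higher in phenformin. In control-line explants its log2 values in water were 8.01, 7.53 and 7.43 in replicates 1 to 3, and in phenformin they were 9.05, 9.20 and 9.13. In PGC-1alpha explants they were 5.39, 5.92 and 6.21 in water and 6.43, 6.60 and 6.48 in phenformin. The 4 groups did not overlap, and from high to low they ran control line in phenformin (9.13 ± 0.08, SD, n = 3), control line in water (7.66 ± 0.31), PGC-1alpha in phenformin (6.50 ± 0.09) and PGC-1alpha in water (5.84 ± 0.42). All 3 control-line phenformin arrays and 1 control-line water array were above background, and no PGC-1alpha array was. In PGC-1alpha water arrays, Cyp1b1 exceeded between 59.4% and 78.6% of the negative control probe sets, against 98.1% to 98.4% in control-line phenformin arrays. In explants that could hold more than 1 cell type, fewer cells of a type and less RNA per cell cannot be told apart.

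**Figure D1:**
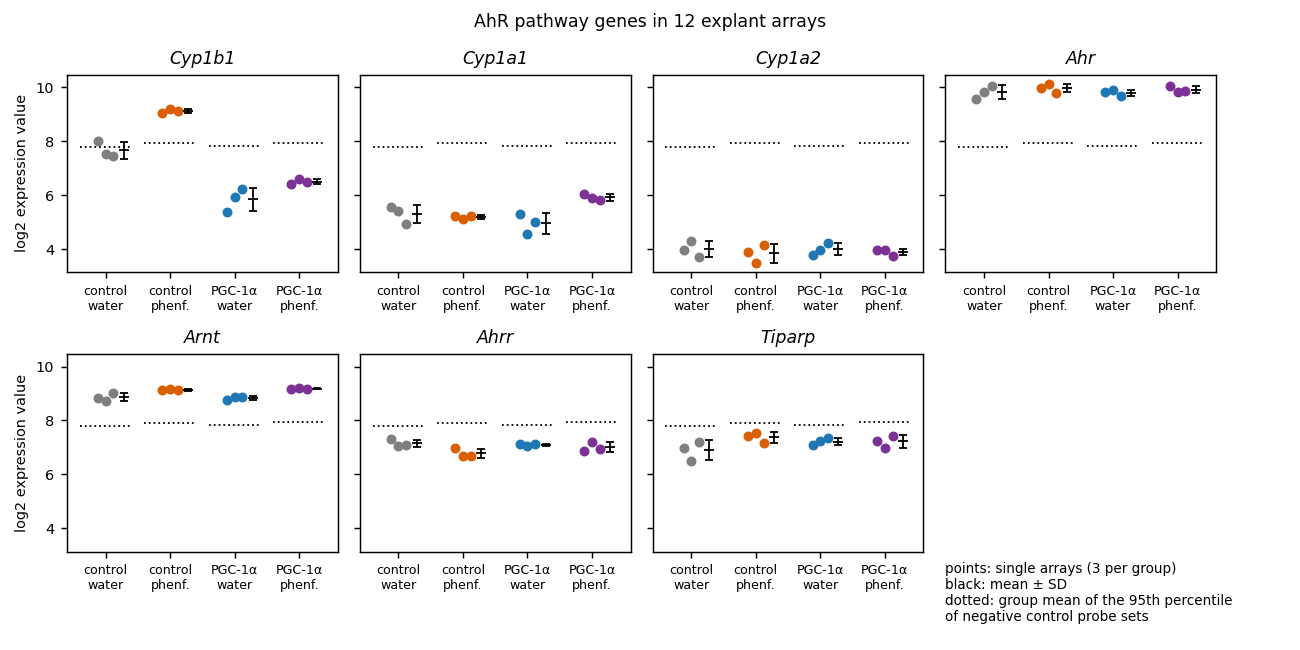
Log2 expression values of the 7 AhR pathway genes in each of the 12 arrays (points, 3 per group), with the mean ± SD in black and the group mean of the 95th percentile of negative control probe sets as a dotted line. Cyp1b1 runs from 5.39 to 9.20 with the 4 groups apart, Ahr and Arnt lie above the dotted line in every array, and Cyp1a1, Cyp1a2, Ahrr and Tiparp lie below it in every array.

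Between the lines, Cyp1b1 was lower in PGC-1alpha explants by a log2 difference of -1.82 ± 0.19 in water and of -2.62 ± 0.19 in phenformin, with adjusted p of 9.76e-05 and 2.8e-06. All 3 PGC-1alpha arrays lay below all 3 control-line arrays in both treatments. Because it was not above background in PGC-1alpha explants, the fold in phenformin is a bound, at least 2.27-fold lower, and none can be given in water. These comparisons share the control-line arrays for which Cyp1b1 was picked, so they are not independent of that choice. Leaving out each of the 12 arrays in turn gave differences of -2.01 to -1.60 in water and -2.67 to -2.59 in phenformin, all past the threshold.

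Under phenformin, the rise of Cyp1b1 in control-line explants for which it was picked was 2.76-fold, a log2 difference of 1.47 ± 0.19, measured against a water group with 1 of 3 arrays above background. Relative to the negative control median of each array it was 1.18, and adjusted for each array's gap between its control probe sets, positive minus negative, it was 1.75. Without replicate 2 of the control-line water group it was 1.40. In PGC-1alpha explants, arrays that the choice did not use, Cyp1b1 differed by 0.66 ± 0.19, with all 3 phenformin arrays above all 3 water arrays, and this did not pass over all genes (adjusted p = 0.191, 95% confidence interval 0.26 to 1.07). The measured response was smaller in PGC-1alpha explants by a log2 difference of -0.80 ± 0.26, given without a test because it rests on the comparison that chose the gene. Every PGC-1alpha array was below background for Cyp1b1, and how far the low signal there set the size of the response was not tested.

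Cyp1a1, the most closely studied AhR target, did not share this pattern. In control-line explants its log2 values were 5.56, 5.41 and 4.93 in water and 5.23, 5.11 and 5.22 in phenformin, and these groups overlapped. In PGC-1alpha explants they were 5.31, 4.55 and 4.99 in water and 6.04, 5.89 and 5.81 in phenformin, so the phenformin arrays of this line were the highest 3 of the 12. No array was above background: the values exceeded 40.1% to 71.5% of the negative control probe sets, the middle of their range.

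Compared in phenformin, Cyp1a1 was higher in PGC-1alpha than in control-line explants by 0.73 ± 0.18 on the log2 scale (limma, adjusted p = 0.0418), the opposite direction to Cyp1b1. That call was lost without any 1 of the 6 phenformin arrays or without PGC-1alpha water replicate 3, with adjusted p of up to 0.164, relative to the negative control median (adjusted p = 0.1) and adjusted for the gap between control probe sets (adjusted p = 0.0786). Within PGC-1alpha explants Cyp1a1 differed by 0.96 ± 0.18 between phenformin and water (adjusted p = 0.0586). This came within the threshold on leaving out replicate 1 of PGC-1alpha water (adjusted p = 0.0482) or replicate 3 of control-line water (adjusted p = 0.0385), and after quantile normalization (adjusted p = 0.0292). In control-line explants the difference was -0.12 ± 0.18 (adjusted p = 0.798), and in water the lines differed by -0.35 ± 0.18 (adjusted p = 0.502). The responses of the lines differed by 1.08 ± 0.26, which did not pass over all genes (adjusted p = 0.928, unadjusted p = 0.00104). No fold is given, as both groups were below background in each comparison.

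Cyp1a2, a P450 made mainly in liver, was below background in all 12 arrays. Its log2 values ran from 3.47 to 4.30, which exceeded 17.7% to 41.6% of the negative control probe sets. All groups overlapped, and the 4 differences lay between -0.15 and 0.05 with adjusted p from 0.719 to 0.996.

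Ahr, the receptor itself, was above background in all 12 arrays and varied little. Its log2 values were 9.57, 9.84 and 10.06 in control-line water arrays, 9.99, 10.13 and 9.81 in control-line phenformin arrays, 9.81, 9.91 and 9.69 in PGC-1alpha water arrays and 10.06, 9.82 and 9.86 in PGC-1alpha phenformin arrays. All groups overlapped. Between the lines Ahr differed by -0.02 ± 0.14 in water (95% confidence interval -0.32 to 0.28) and by -0.06 ± 0.14 in phenformin (-0.36 to 0.23), so differences of that size in either direction are not excluded. Its difference between phenformin and water was 0.15 ± 0.14 in control-line explants (adjusted p = 0.621) and 0.11 ± 0.14 in PGC-1alpha explants (adjusted p = 0.833).

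Arnt, the partner with which the receptor binds DNA, was above background in all 12 arrays and stood higher in phenformin in both lines. Control-line log2 values were 8.85, 8.71 and 9.005 in water and 9.11, 9.19 and 9.13 in phenformin. PGC-1alpha values were 8.74, 8.86 and 8.88 in water and 9.16, 9.20 and 9.18 in phenformin. In each line all 3 phenformin arrays lay above all 3 water arrays, by 1.22-fold in control-line explants (0.29 ± 0.10, adjusted p = 0.173) and 1.28-fold in PGC-1alpha explants (0.35 ± 0.10, adjusted p = 0.204). Neither passed over all genes. Among the 7640 genes above background in 3 or more arrays the PGC-1alpha difference did (adjusted p = 0.0441). Relative to the negative control median, a scaling that moved the median of all genes by -0.30 in control-line and -0.19 in PGC-1alpha explants, the Arnt differences were 0.00 below zero and 0.18 above it. The lines differed by -0.03 ± 0.10 in water and 0.04 ± 0.10 in phenformin.

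The feedback genes Ahrr and Tiparp were below background in all 12 arrays. Ahrr had log2 values of 7.31, 7.07 and 7.08 in control-line water arrays and of 6.97, 6.70 and 6.67 in control-line phenformin arrays. The phenformin values were the lower 3, with a difference of -0.38 ± 0.13 (adjusted p = 0.152). Relative to the negative control median the difference was -0.67 (adjusted p = 0.0185). In PGC-1alpha explants Ahrr was at 7.12, 7.05 and 7.11 in water and at 6.85, 7.22 and 6.96 in phenformin, overlapping groups that differed by -0.09 ± 0.13.

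Tiparp had log2 values of 6.99, 6.49 and 7.21 in control-line water arrays and of 7.41, 7.55 and 7.16 in control-line phenformin arrays. These groups overlapped, and their difference of 0.48 ± 0.18 did not pass (adjusted p = 0.192). It was 0.27 without control-line water replicate 2, which held the lowest value. In PGC-1alpha explants Tiparp was at 7.08, 7.22 and 7.33 in water and at 7.26, 6.98 and 7.43 in phenformin, a difference of 0.01 ± 0.18. Neither gene differed past the threshold between the lines, where adjusted p lay between 0.414 and 0.921.

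**Figure D2:**
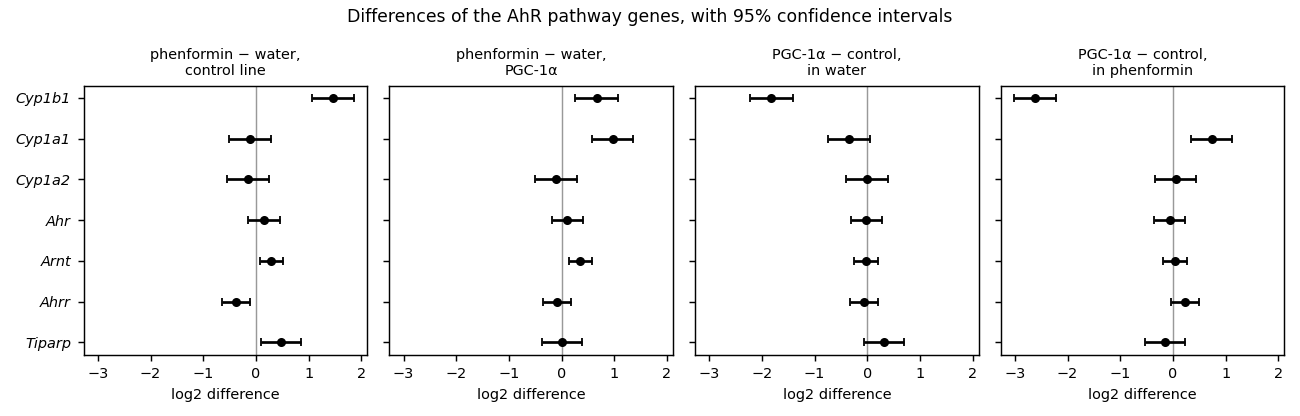
Log2 differences of the 7 genes in the 4 comparisons named above the panels, with 95% confidence intervals from limma (3 arrays per group). Cyp1b1 stands at -1.82 and -2.62 between the lines, where Cyp1a1 is at -0.35 and 0.73 and Ahr and Arnt lie within 0.07 of 0. The interval of Cyp1b1 in the first panel belongs to the comparison that chose it and is no test.

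Counted over the 7 genes, limma called 1 as lower (Cyp1b1) and none as higher in PGC-1alpha explants in water, where 1.37% of all genes were called lower and 0.636% higher. In phenformin it called 1 lower (Cyp1b1) and 1 higher (Cyp1a1), against 3.16% and 0.856% of all genes. Cyp1b1 was picked on control-line arrays that both comparisons share, so its calls are not independent of that choice. None of the other 6 genes was called lower in either. Under phenformin none of the 6 genes other than Cyp1b1 was called in control-line explants, where 0.918% of all genes were called higher and 0.282% lower. Of the 6, 3 had an unadjusted p under 0.05, as had 3269 of all 19505 genes. In PGC-1alpha explants none of the 7 was called, with 0.133% of all genes called higher and 0.0615% lower. Of the 7, 3 had an unadjusted p under 0.05, as had 2219 of all 19505 genes. The difference of the responses was called for 0% of all genes higher and 0% lower, with 1018 genes at an unadjusted p under 0.05, Cyp1a1 among them and none of the other 5 tested genes. Groups that did not overlap are common in these data. For phenformin they were found in 2 of the 6 genes in control-line explants, where 19.4% of all genes did not overlap, and in 3 of 7 in PGC-1alpha explants, against 19.6%. Between the lines they were found in 1 of 7 in water (Cyp1b1), against 14.1% of all genes, and in 2 of 7 in phenformin (Cyp1b1 and Cyp1a1), against 27.5%.

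Among other genes known as AhR targets, Aldh3a1 had a profile close to that of Cyp1b1. Aldh3a1 encodes an aldehyde dehydrogenase of the classical AhR gene battery. Its log2 value was 8.06 ± 0.08 (SD, n = 3) in control-line explants in water and 9.22 ± 0.13 in phenformin, a 2.24-fold rise (1.16 ± 0.11, adjusted p = 0.000759). In PGC-1alpha explants it was 7.06 ± 0.11 in water and 7.55 ± 0.12 in phenformin, all below background, a difference of 0.50 ± 0.11 that did not pass (adjusted p = 0.106). It was at least 1.17-fold lower in PGC-1alpha explants in water (adjusted p = 0.000223) and at least 2.41-fold lower in phenformin (-1.66 ± 0.11, adjusted p = 1.75e-06). The 4 groups of Aldh3a1 fell in the same order as those of Cyp1b1, with a Pearson r of 0.97 between the genes over the 12 arrays. Over all genes 16 had a higher r, a count that includes Cyp1b1 itself. For the other measured targets r with Cyp1b1 ran from -0.88 (Socs2) to 0.92 (Xdh), so the targets did not all share its profile. The test of the difference of responses of Aldh3a1 did not pass (-0.66 ± 0.16, adjusted p = 0.928).

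Of 12 measured targets in this list, 3 were lower in PGC-1alpha explants in water and 4 in phenformin, where 1.37% and 3.16% of all genes were, and none was higher in either. The list was drawn up with earlier results of these data known, so these counts are a description and no test of the list. The list's median difference was -0.18 in water, against 0.00 over all genes, and -0.10 in phenformin, against -0.01. Xdh, xanthine dehydrogenase, was at least 1.47-fold lower in water (-1.34 ± 0.19, adjusted p = 0.00106) and at least 1.96-fold lower in phenformin (-1.55 ± 0.19, adjusted p = 0.000238). Serpinb2, a plasminogen activator inhibitor, was 1.59-fold lower in water (-0.67 ± 0.13, adjusted p = 0.0132) and 2.16-fold lower in phenformin (-1.11 ± 0.13, adjusted p = 0.000168). In water the Serpinb2 call was lost without PGC-1alpha replicate 1 (adjusted p = 0.0602) and when adjusted for the gap between control probe sets (adjusted p = 0.0893). Gsta2, a glutathione transferase, was lower in phenformin by 0.72 on the log2 scale, with every array below background (-0.72 ± 0.18, adjusted p = 0.0387). That call was lost without any 1 of the 6 phenformin arrays, replicate 2 of PGC-1alpha water or replicate 1 of control-line water, with adjusted p of up to 0.169, after quantile normalization (adjusted p = 0.0855) and when adjusted for that gap (adjusted p = 0.0765).

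The remaining targets did not pass in any comparison: Nqo1, Nfe2l2, Abcg2, Socs2, Ereg, Cdkn1b, Fgf21 and Ptgs2. Nqo1, a quinone reductase that both AhR and NRF2 induce, was below background in every array, with group means of 5.18 to 5.38. Under phenformin Aldh3a1 was the only 1 of the 12 called in control-line explants, where 0.918% of all genes were called higher and 0.282% lower. None was called in PGC-1alpha explants. An unadjusted p under 0.05 was found for 5 in control-line and 2 in PGC-1alpha explants, and for 3269 and 2219 of all 19505 genes. The list's medians were 0.04 and 0.03, against -0.01 and -0.02 over all genes. Adjusted for the gap between control probe sets, which left 0 genes called in control-line explants, the Aldh3a1 difference was 1.12 (adjusted p = 0.353).

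**Figure D3:**
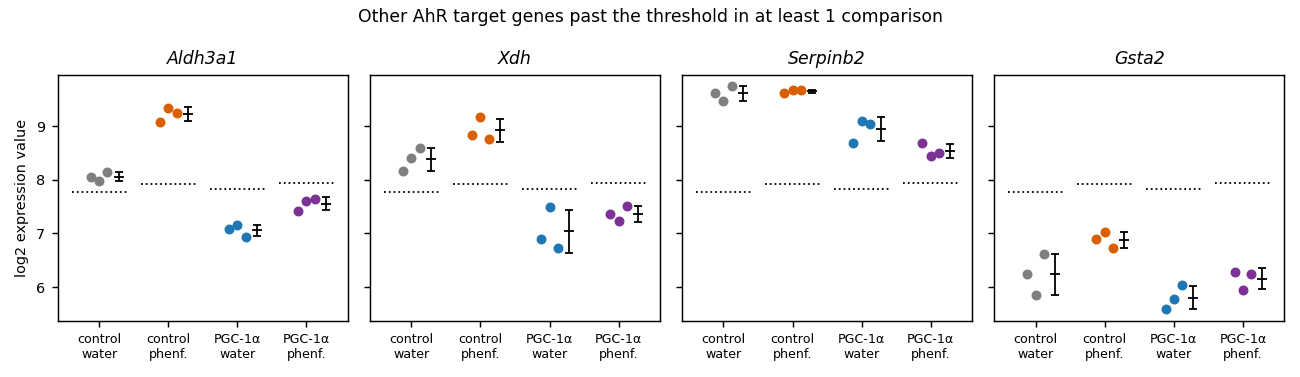
Log2 expression values of the 4 other AhR target genes that passed the threshold in at least 1 comparison, by array (points, 3 per group), with the mean ± SD in black and the group mean of the 95th percentile of negative control probe sets as a dotted line. Aldh3a1 and Xdh lie above the line in the control line and below it in PGC-1alpha explants, Serpinb2 lies above it in all 12 arrays and Gsta2 below it in all 12.

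The genes that hold, modify or feed the receptor did not move past the threshold. None of 9 measured chaperones and coregulators was called in any of the 5 comparisons, with 0 to 3 of them at an unadjusted p under 0.05. Over the 5 comparisons 1018 to 3269 of all 19505 genes were at that level. The HSP90 gene Hsp90aa1 had group means of 12.10 to 12.20. The smallest unadjusted p in this list belonged to Sp1, a zinc finger factor that cooperates with AhR (-0.28 ± 0.11 under phenformin in control-line explants, adjusted p = 0.202), followed by the coactivator Ncoa1 (0.41 ± 0.16, adjusted p = 0.221). Ncoa1 was above background on 1 of 3 control-line phenformin arrays and on no control-line water array. None of 11 genes of tryptophan breakdown and uptake, which supply kynurenine ligands, was called either, with 0 to 3 at an unadjusted p under 0.05. The oxygenases Ido1, Ido2 and Tdo2 were below background in every array. Kyat3, a kynurenine aminotransferase, differed by 0.49 ± 0.11 under phenformin in PGC-1alpha explants (adjusted p = 0.106), below background. The amino acid transporter Slc7a5 differed by -0.36 ± 0.12 between the lines in phenformin (adjusted p = 0.132).

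Among 13 relatives of AhR and ARNT with the same bHLH-PAS fold, 1 rose in control-line explants under phenformin and none was called in the other 4 comparisons, where 0 to 2 had an unadjusted p under 0.05. It was Arntl, the clock factor BMAL1, which rose 1.84-fold from 7.57 ± 0.30 (SD, n = 3) in water to 8.45 ± 0.07 in phenformin (0.88 ± 0.15, adjusted p = 0.0152), with 1 of 3 water arrays above background. The call was lost without control-line water replicate 2 or control-line phenformin replicate 2 or 3, with adjusted p of up to 0.0938. It was also lost when adjusted for the gap between control probe sets (adjusted p = 0.494). In PGC-1alpha explants Arntl differed by 0.61 ± 0.15 (adjusted p = 0.125), with the groups apart. Hif1a, the hypoxia factor that also pairs with ARNT, was above background in all 12 arrays with group means of 10.13 to 10.56.

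None of 8 genes that donate electrons to P450 enzymes or clear their products was called, with 0 to 4 at an unadjusted p under 0.05. Ephx1, the microsomal epoxide hydrolase that acts after CYP1 enzymes on hydrocarbons, stood higher in phenformin in both lines, at 11.30 against 10.83 in control-line explants (0.47 ± 0.12, adjusted p = 0.0755) and 11.02 against 10.51 in PGC-1alpha explants (0.51 ± 0.12, adjusted p = 0.106). Cyb5r3, cytochrome b5 reductase, differed by -0.42 ± 0.12 between the lines in water (adjusted p = 0.0955).

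**Figure D4:**
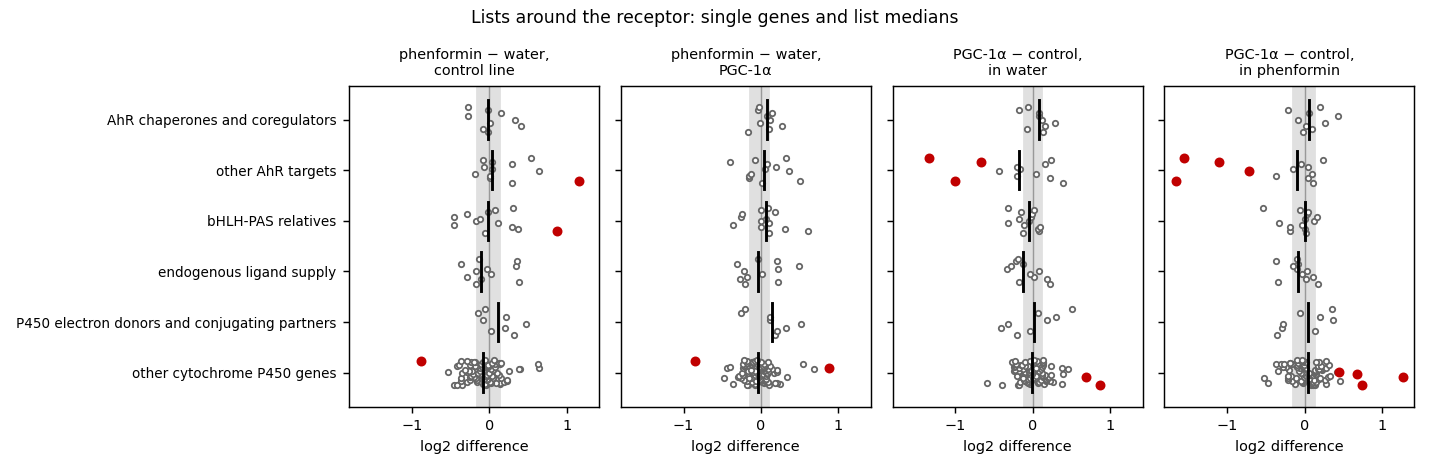
Log2 differences of single genes in the 6 lists around the receptor (open points, filled red where limma's adjusted p is under 0.05), with each list's median as a black bar and the interquartile range of all 19505 genes as a grey band, in the 4 comparisons named above the panels. The red points of the AhR target list lie at -0.67 to -1.34 in water and -0.72 to -1.66 in phenformin between the lines, and the medians of the lists lie between -0.18 and 0.15.

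Of 88 other cytochrome P450 genes, 10 were above background on any array, and few were called. Cyp51, the lanosterol demethylase of cholesterol synthesis, fell in both lines under phenformin, from 10.37 ± 0.25 (SD, n = 3) to 9.50 ± 0.09 in control-line explants (1.84-fold, adjusted p = 0.00853) and from 10.34 ± 0.06 to 9.48 ± 0.12 in PGC-1alpha explants (1.81-fold, adjusted p = 0.0176). In PGC-1alpha explants that call was lost without replicate 1 or 2 of either of its groups (adjusted p of up to 0.135). Adjusted for the gap between control probe sets, the Cyp51 call was lost in control-line (adjusted p = 0.475) and in PGC-1alpha explants (adjusted p = 0.555). That adjustment left 0 genes called in control-line and 1 in PGC-1alpha explants. Cyp39a1, an oxysterol hydroxylase, was 1.84-fold higher in phenformin in PGC-1alpha explants (0.88 ± 0.15, adjusted p = 0.0397), a call lost without any 1 of the 6 PGC-1alpha arrays or control-line phenformin replicate 1 (adjusted p of up to 0.269) and relative to the negative control median (adjusted p = 0.0696). Adjusted for the control gap the Cyp39a1 call was lost too (adjusted p = 0.447). Between the lines, 2 of the 88 were called higher in PGC-1alpha explants in water and 4 in phenformin, where 0.636% and 0.856% of all genes were, all of them below background in every array. None was called lower, against 1.37% and 3.16% of all genes.

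The P450 genes higher in PGC-1alpha explants in both treatments were Cyp2c55, an intestinal and renal enzyme of fatty acid metabolism (0.69 ± 0.12 and 1.27 ± 0.12 in water and phenformin, adjusted p of 0.00894 and 4.64e-05), and Cyp11a1, the cholesterol side-chain cleavage enzyme (0.87 ± 0.16, adjusted p = 0.0087, and 0.75 ± 0.16, adjusted p = 0.0146). Relative to the negative control median the Cyp2c55 call in water was lost (adjusted p = 0.0643), and adjusted for the gap between control probe sets so were the water calls of Cyp2c55 (0.0838) and Cyp11a1 (0.0778). In phenformin the Cyp11a1 call was lost without PGC-1alpha phenformin replicate 2 or control-line phenformin replicate 2 or 3 (adjusted p of up to 0.0864). Cyp2j11 and Cyp2d26 passed in phenformin (0.45 ± 0.11, adjusted p = 0.0306, and 0.68 ± 0.17, adjusted p = 0.0349). Both calls were lost without replicate 2 or 3 of either phenformin group, and Cyp2j11 also without control-line phenformin replicate 1, with adjusted p of up to 0.151 and 0.173. Relative to the negative control median both were lost too, with adjusted p of 0.0621 and 0.0688, and adjusted for the control gap with 0.0633 and 0.0682. Cyp2j11 was also lost with a variance trend and robust estimation (adjusted p = 0.0702). The median difference of the 88 genes was -0.01 in water and 0.05 in phenformin, against 0.00 and -0.01 over all genes.

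The genes most like Cyp1b1 were sought by Pearson's r over the 12 arrays among 7505 named genes above background in 3 or more of them. The highest were Loxl3, a lysyl oxidase (r = 0.98), the tubulin gene Tubb2a, the leukotriene synthase Ltc4s, the carboxylesterase Ces2g and the zinc finger factor Glis2 (each 0.98), then Ablim3, the ligand Wnt7b and the adhesion receptor Adgrg2 (each 0.98). Ablim3 and Adgrg2 were above background on the 3 control-line phenformin arrays alone, so they were ranked only through the group where they and Cyp1b1 are high. Loxl3 was above background on the 6 control-line arrays alone, so it was ranked only through the line where it and Cyp1b1 are higher. The 12 points share their line and treatment, so r follows the order of the 4 group means, and 239 genes had an r over 0.9. Within the 6 control-line arrays alone r was 0.91 to 0.98, and within the 6 PGC-1alpha arrays it was 0.55 for Adgrg2 and 0.80 to 0.92 for the other 7. Each line still holds both treatments, so these r follow the step between them, which in the control line chose Cyp1b1. The genes were also picked for their r on these same arrays. Between phenformin and water, Loxl3 differed by 1.03 ± 0.16 in the control line and by 0.35 ± 0.16 in the PGC-1alpha line, against 1.47 and 0.66 for Cyp1b1. All PGC-1alpha arrays of both genes were below background.

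**Figure D5:**
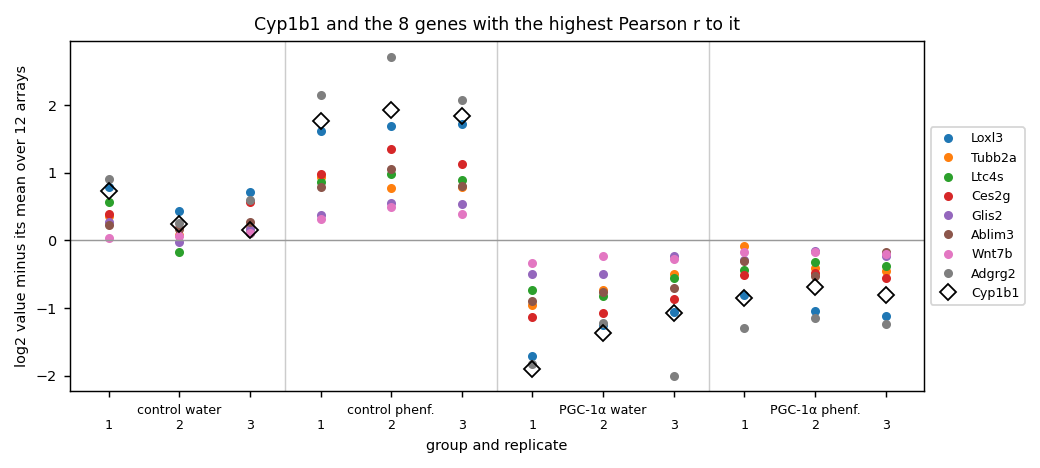
Log2 values of Cyp1b1 (open diamonds) and of the 8 genes with the highest Pearson r to it (points), each minus its mean over the 12 arrays, by group and replicate. All 9 genes are highest in the 3 control-line phenformin arrays, and all lie below their mean in the 6 PGC-1alpha arrays.

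Markers of the labelled mammary epithelial cells and of other cells that a lung explant could hold were measured beside Cyp1b1, and their part in its differences was not tested. The keratins Krt8, Krt18 and Krt19 and E-cadherin, Cdh1, were above background in all 12 arrays, whereas Epcam, Cldn3, Cldn7 and Esrp1 were above it in none. Of these 8 epithelial genes Krt19 was called, 1.62-fold higher in phenformin in control-line explants (0.70 ± 0.15, adjusted p = 0.0405), where 0.918% of all genes were called higher. That call was lost without any 1 of the 6 phenformin arrays or replicate 2 of either water group (adjusted p of up to 0.179). It was also lost after quantile normalization (adjusted p = 0.0674) and relative to the negative control median, where the difference was 0.41 (adjusted p = 0.0883). Adjusted for the gap between control probe sets it was lost too (adjusted p = 0.374). None of 9 fibroblast and mural, 8 endothelial, 6 leukocyte and 7 lung epithelial markers was called in any comparison. The smallest unadjusted p of these lists belonged to Vwf, an endothelial clotting factor, at -0.45 ± 0.14 under phenformin in control-line explants (adjusted p = 0.121). Of those markers, Esam alone was above background in all arrays, and Col1a1 was so on 1. The mean log2 level of the fibroblast and mural list, cells in which Cyp1b1 is known to be expressed, ran from 5.186 to 5.498 in control-line water arrays, 5.137 to 5.297 in control-line phenformin arrays, 5.26 to 5.44 in PGC-1alpha water arrays and 5.16 to 5.31 in PGC-1alpha phenformin arrays. It overlapped between the lines in both treatments. The endothelial list ran from 5.36 to 5.82, the leukocyte list from 4.65 to 5.26 and the lung epithelial list from 5.53 to 5.93 over all 12 arrays.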

How the data were processed

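The deposited table holds 1 log2 expression value per probe set and sample, 28815 probe sets on 12 arrays. The log2 scale was inferred from the range of these deposited values, 1.50 to 13.65. How the authors normalized and summarised them, and the base of the logarithm, is not given in the sources used here, and another base would rescale every difference. Per the labels' protocols, 10 ng of total RNA was labelled per array. A second table was not used, because its 12 value columns match no sample label. Symbols came from the platform annotation: 19572 probe sets had 1 symbol, all matched RefSeq (GRCm38.p6) by Entrez identifier, and the probe set with the highest mean was kept for each of 19505 genes. Each AhR gene has 1.

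All 12 arrays entered a single limma fit (version 3.58.1, R 4.3.3, lmFit then eBayes) with a mean for each of the 4 groups, 8 residual degrees of freedom and no filter on level. The 5 contrasts were two-sided, with a threshold of 0.05. A gene below background on every array of its dimmer group has only a bound: the brighter mean against, per dim array, whichever was larger of background and the gene's value. The fit was tested on simulated data.

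The AhR genes and all lists were chosen with earlier results of these data known. Beside the AhR genes and Ppargc1a, names were limited to up to 4 genes per list and comparison past the threshold or, for a list with none, those with the smallest unadjusted p, and to the 8 genes with the highest r to Cyp1b1. The levels of Hsp90aa1, Hif1a and Nqo1, and the markers above or below background, were named after their values were seen. Of 16 other AhR targets 12 were measured, of 12 chaperones and coregulators 9, of 12 ligand genes 11 and of 10 P450 partners 8. The rest were not analysed here. Alternatives were quantile normalization, scaling to the negative controls, a filter on dim genes, the replicate block, another variance model, averaged probe sets, a control covariate and leaving out each array.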

Additional observations from a re-analysis of the deposited data

How the results depend on the processing

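The lower level of Cyp1b1 in PGC-1alpha explants kept its direction and its side of the threshold in both treatments under every alternative run. Both comparisons share control-line arrays for which Cyp1b1 was picked, so these outcomes are not independent of that choice. The rise of Cyp1b1 in control-line explants was 1.18 relative to negative controls, 1.75 with the control gap as a covariate, and 1.35 to 1.64 on leaving out single arrays.

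Counts of genes called moved more. For phenformin in control-line explants the 234 became 3113 relative to negative controls (75 higher, where 179 of 234 were higher before), 617 with the filter on dim genes, 666 with a variance trend and robust estimation together and 0 with the control covariate. In PGC-1alpha explants the 38 became 62 after quantile normalization, 250 with the filter, 250 with trend and robust estimation and 1 with the covariate, and relative to negative controls 3 of 41 were higher, where 26 of 38 were before. Between the lines in water the 391 became 626 with trend and robust estimation and 193 with the covariate, and relative to negative controls 68 of 382 were higher, against 124. In phenformin the 783 became 440 relative to negative controls. The difference of responses had 1 gene with the filter and 3 with trend and robust estimation. Single arrays left out gave 21 to 601, 3 to 77, 247 to 349, 346 to 995 and 0 to 1 genes in these 5 comparisons. The cause was not tested.

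Among the AhR genes called, phenformin in control-line explants had 1 relative to negative controls (Ahrr). In PGC-1alpha explants there was 1 after quantile normalization and with trend and robust estimation (Cyp1a1), 1 with the filter (Arnt), and 0 to 1 without single arrays. In phenformin between the lines 1 was left relative to negative controls, with the filter, which drops Cyp1a1, and with the covariate, and 1 to 2 without single arrays.

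Reversals occurred in uncalled differences. Relative to negative controls Ahr was at -0.14 and -0.062 under phenformin in the control and PGC-1alpha lines and at 0.077 in the difference of responses, Arnt at -0.0017 in the control line and Tiparp at -0.16 in the PGC-1alpha line. After quantile normalization Ahr was at 0.034 between the lines in phenformin and 0.070 in the difference of responses, and Cyp1a2 at 0.011 between the lines in water. With the covariate Cyp1a2 was at 0.020, 0.033 and 0.062 in the control line, the PGC-1alpha line and between the lines in water. Leaving out single arrays moved Cyp1a1 between -0.30 and 0.015 in the control line, and Tiparp between -0.094 and 0.13 in the PGC-1alpha line. It moved Cyp1a2 between -0.31 and 0.029 in the control line, -0.21 and 0.014 in the PGC-1alpha line, -0.15 and 0.15 between the lines in water, -0.14 and 0.21 in phenformin, and -0.13 and 0.21 in the difference of responses. It moved Ahr between -0.15 and 0.099 between the lines in water, -0.15 and 0.016 in phenformin, and -0.16 and 0.086 in the difference of responses. In water Ahrr moved between -0.10 and 0.016 and Arnt between -0.099 and 0.049, and Arnt between -0.013 and 0.14 in the difference of responses.

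Replicate numbers did not pair the arrays: deviations of same-numbered arrays correlated at -0.37 to 0.06, and 0 of 12 arrays matched its own number best. The replicate block left 100 genes for phenformin in control-line and 10 in PGC-1alpha explants. Among named genes it ended the calls of Krt19 in the control line (adjusted p = 0.0859), Cyp51 (0.0669) and Cyp39a1 (0.111) in the PGC-1alpha line, and Gsta2 (0.0522) and Cyp2d26 (0.0738) between the lines in phenformin, and changed no other.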
